A study of Rattus norvegicus with 9 samples.

Results

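Responses of the rat adrenal medulla to 6 daily sessions of immobilization were set against its responses to 1 session, to see which shrank, which persisted and which grew with repetition. Of the 9 arrays of the study, 6 enter the comparison: the 3 titled 6XIMO (IMO_6x here) and the 3 titled 1XIMO (IMO_1x). The remaining 3 hold unstressed controls, which set the level from which a response is counted. Adult rats of 280 to 320 g were immobilized for 2 h once or for 2 h daily over 6 days, and both adrenal medullae were dissected after the last session. Both stressed groups were therefore sampled after a session, and they differ in the sessions that came before. The organism is given as Rattus norvegicus, although some label fields name mouse or brain. Strain, sex and the number of animals per array are not stated, so p-values describe only how far these samples spread, which may in part be technical.

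Chromaffin cells of the medulla make adrenaline and noradrenaline, store them in granules with chromogranins and neuropeptides, and release them when splanchnic nerve endings fire acetylcholine and PACAP at them. Each bout of firing also switches on immediate early genes, transcription factors whose mRNA appears and decays fast and which then act on slower genes such as those of enzymes and peptides. Repeated stress is known to keep the catecholamine enzymes high while some early signals habituate, that is, become smaller when the same stressor returns.

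All values are intensities of Affymetrix rat probe sets, analysed as log2(intensity + 16), with 1 probe set annotated to exactly 1 gene standing for each of 11287 genes. Markers of chromaffin cells (8 tested) and of adrenal cortex (11 tested) were bright on every array, with 6 and 10 of them in the brightest of 10 equal groups of genes, so cortex RNA was present in all groups. The IMO_6x arrays stood apart in quality measures. The actin 3′/5′ ratio, which rises as the labelled RNA becomes less complete, reached 231 in the first IMO_6x replicate, 6.11 in the second and 8.87 in the third, where IMO_1x arrays had 1.57 to 1.99, and the hybridisation controls had mean log2 levels of 14.04 to 17.52 against 11.96 to 13.46. The exact permutation p was 0.1 for both, the smallest that 3 against 3 arrays allow. Over all genes, correlations of IMO_6x replicate 1 with the rest ran from 0.604 to 0.730, and those among the remaining 8 arrays from 0.854 to 0.983. RNA quality and the number of sessions cannot be told apart in this design, and a drop in a transcript cannot be told apart from fewer cells of the type that makes it.

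Between 6 sessions and 1, 588 genes rose (5.21% of those tested) and 523 fell (4.63%) at a limma adjusted p under 0.05, 396 and 393 of them by at least 2-fold. Each of these 1111 genes (9.84%) had no overlap between the 3 IMO_6x and the 3 IMO_1x arrays, but so did 33.8% of all genes. The counts rested on single arrays. Without IMO_6x replicate 1, 1711 rose (15.1%) and 1953 fell (17.3%). After quantile normalization 388 rose (3.44%) and 243 fell (2.15%), and with both changes 1373 (12.2%) and 1116 (9.88%). Without IMO_1x replicates 1, 2 and 3 the numbers past the threshold in either direction were 360, 35 and 0, and in the last case 2326 genes had an unadjusted p under 0.05 and the smallest adjusted p was 0.0509. Without control replicates 1, 2 and 3, which share in the estimate of spread, they were 737, 586 and 537, and without IMO_6x replicate 3 there were 674. Below, a change is called kept when it passed in 1 direction in 4 settings: all arrays, without IMO_6x replicate 1, after quantile normalization, and with both. Of all genes tested, 314 rises (2.78%) and 194 falls (1.72%) were kept.

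Responses were sorted from the same fit. Against control, 9.51% of genes passed after 1 session, and 24.3% after 6, 1057 upward (9.36%) and 1681 downward (14.9%). Of 474 genes above control after 1 session (4.2% of those tested), 106 shrank, meaning that they were also lower after 6 sessions than after 1. A further 139 persisted, with a 95% interval of the difference inside -1 to 1 on the log2 scale (2-fold either way), 18 grew and 211 were undetermined. Of 599 genes below control after 1 session (5.31%), 65 shrank, 305 persisted, 29 grew and 200 were undetermined. Late changes, past the threshold in IMO_6x against both other groups and not in IMO_1x against control, numbered 395 upward and 317 downward. In all 4 settings, 62 upward responses shrank, 85 persisted and 7 grew. In the same settings 26 downward responses shrank, 117 persisted and 1 grew, and 143 upward and 75 downward changes were late. These classes choose genes by IMO_1x and then set IMO_6x against the same arrays, which favours shrinking, so the counts carry no test. Leaving out 1 array moved the number of shrunken responses from 171 to between 0 (without IMO_1x replicate 3) and 712 (without IMO_6x replicate 1).

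**Figure D1:**
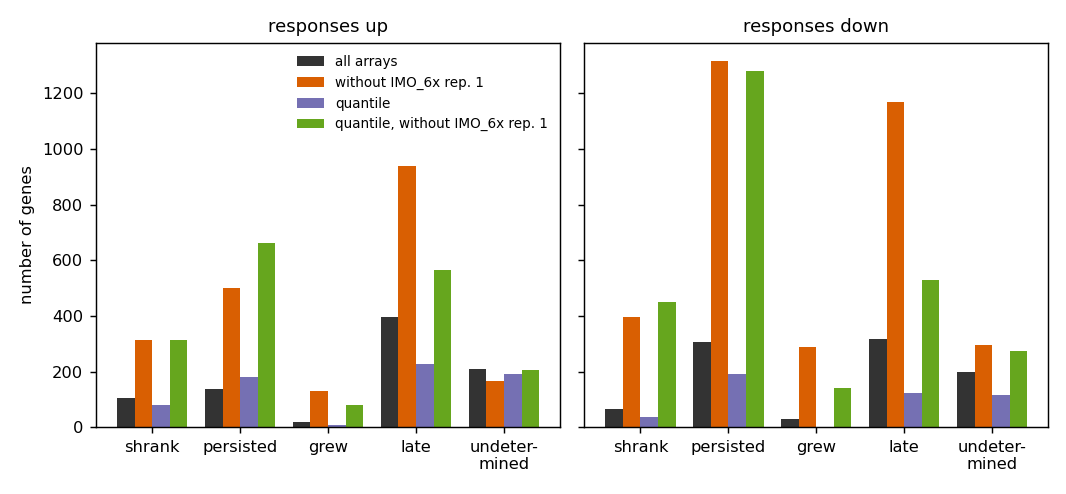
Number of genes (y axis, linear from 0) in each response class (x axis) for responses up (left) and down (right). Bars stand for the 4 settings named in the legend. With all arrays, late changes (395 up, 317 down) outnumber shrunken responses (106 up, 65 down), and every class has more genes without IMO_6x replicate 1 than with it, except undetermined upward responses.

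Immediate early genes were among the responses that shrank. Of 28 tested, 22 were above control after 1 session. In IMO_6x against IMO_1x 11 fell and 2 rose with all arrays, where 4.63% of all genes fell and 5.21% rose. The median log2 difference was -0.95 against -0.08 over all genes. All 11 falls were kept: Fos, Fosb, Fosl1, Fosl2 and Junb, which pair into the AP-1 factor, Atf3, a stress-induced repressor of the same superfamily, the zinc finger factors Klf4 and Klf6, Srf, which drives growth-factor-induced genes, Csrnp1 and the neuronal activity gene Arc. The median stayed between -1.17 and -0.73 in the other 3 settings.

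Fosb showed what a partial response looks like. Its intensity was 39.3, 34.5 and 45.4 in control, 8133, 8073 and 11293 after 1 session and 2271, 1580.2 and 1068 after 6. The 3 groups did not overlap, and all IMO_6x arrays lay far above control. Fosb fell 5.73-fold from 1 session to 6 (log2 difference -2.52 ± 0.34 (SE), limma adjusted p = 0.00945) and was still 28.5-fold above control. Fos itself had 6299, 12288 and 14407 after 1 session and 2646, 3711 and 4000.3 after 6, against 291 to 687 in control, a fall of 3.04-fold (adjusted p = 0.0322, and 0.133 at most when 1 array was left out).

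Other members came closer to control, or went below it. Klf4, a factor that restrains proliferation, had 12939, 15489 and 15881 after 1 session and 3268, 3459 and 2832 after 6, against 1136 to 1660.1 in control. The IMO_6x arrays were close together and the change was -2.21 ± 0.20 (adjusted p = 0.00709). Junb had 28079, 29601 and 26029.5 after 1 session and 2404, 7923 and 8719 after 6, against 2673 to 3150.0 in control, so that IMO_6x replicate 1 lay below the control arrays and the other 2 above them. Arc, with 2184, 2155 and 2381 after 1 session, had 500.0, 344 and 459 after 6, below all control arrays at 809.6 to 1215. Srf likewise had 9640.0, 9818 and 11718 after 1 session and 3967, 3721 and 4310.1 after 6, below its control values of 5923 to 6582. In the 4 settings the Srf difference lay between -1.37 and -1.22.

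**Figure D2:**
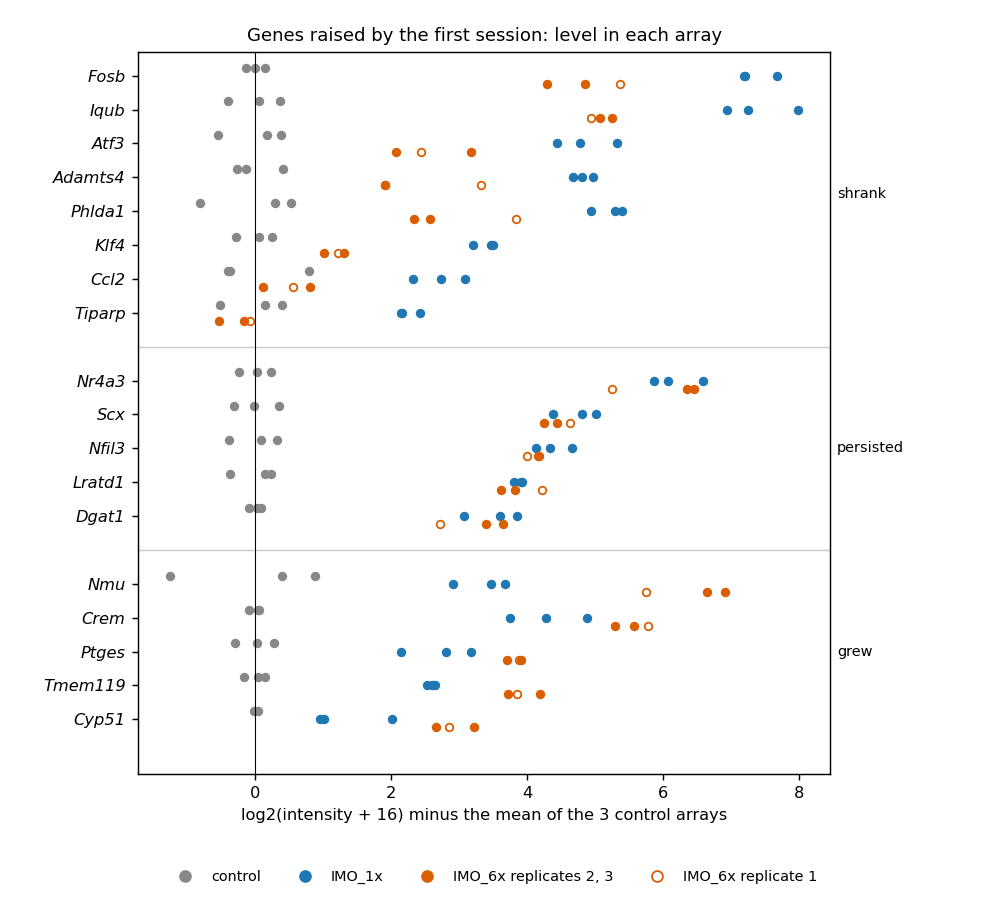
Level of single genes in each array, as log2(intensity + 16) minus the mean of the 3 control arrays (x axis), for genes raised by the first session (y axis, grouped by class with all arrays). Grey points are control, blue IMO_1x, filled orange IMO_6x replicates 2 and 3, and open orange IMO_6x replicate 1. Fosb, Iqub and Atf3 lie between control and IMO_1x after 6 sessions, Nr4a3 and Lratd1 overlap IMO_1x, and Nmu, Ptges and Tmem119 lie above it.

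Some of the feedback inhibitors that the MAPK and cAMP pathways induce against themselves fell with the early factors. Of 23 tested, 17 were above control after 1 session. Between 1 session and 6, 8 fell and 0 rose with all arrays (median -0.98), where 4.63% of all genes fell and 5.21% rose. Of the falls, 5 were kept (1.72% of all genes). Without IMO_6x replicate 1, 10 fell and 1 rose (17.3% and 15.1% of all genes), and with quantile normalization as well 10 fell and 1 rose (9.88% and 12.2%). Gem, a small GTPase that limits calcium channels, had 18130.4, 18296 and 20567 after 1 session and 3773, 6255 and 7088 after 6, against 1412 to 1905 in control. These groups did not overlap, and Gem fell 3.43-fold (-1.78 ± 0.25, adjusted p = 0.00952). Sik1, a kinase induced by cAMP that switches off CREB coactivators, had 16504, 20073 and 20695 and then 5430.4, 8240.1 and 6332, a fall of 2.89-fold (adjusted p = 0.0113). Spry4, which inhibits receptor tyrosine kinase signalling, and Rgs4, which shortens G protein signals, ended within 1.21-fold of control: Spry4 had 2655, 1695 and 2051 after 6 sessions and 1797 to 2864 in control. The phosphatase Dusp14 fell too (-1.36 ± 0.32) but stayed 3.99-fold above control. Dusp5, Spry1 and Trib1 fell with all arrays and were not kept.

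Single members of other groups shrank as well. Ccl2, the chemokine that draws monocytes, had 5871, 3425 and 4548 after 1 session and 999.9, 1186 and 727 after 6, overlapping the control range of 508 to 1172. Ccl2 fell 4.67-fold (adjusted p = 0.012) and was the 1 kept member among the 3 falls in 15 inflammatory genes, the others being the adhesion molecule Icam1 and the matrix-binding Tnfaip6. Zfp36, which speeds decay of cytokine mRNAs, fell 3.47-fold (-1.80 ± 0.27) from 14843, 19062 and 19987 to 3883, 7938 and 4355, with 5218 to 6102 in control. Of 8 early mRNA decay genes, Zfp36 was the 1 above control after 1 session. Between 1 session and 6, Zfp36 and the RNase Zc3h12a fell and Zfp36l1 rose, the fall of Zfp36 alone was kept, and the median was -0.01. Bmp2, a growth factor of the TGF-beta family, had 11187, 13002 and 12938 after 1 session and 3087, 4935 and 3928 after 6, below its control values of 5688 to 8539. Ppp1r15a, the phosphatase subunit that ends the integrated stress response, fell 2.71-fold from 11064, 16273 and 17768 to 3127, 6754 and 7546. With all arrays Ppp1r15a was the only 1 of 16 genes of the Atf4 branch to pass. Without IMO_6x replicate 1, 2 of the 16 fell (17.3% of all genes), and after quantile normalization 3 fell (2.15%). With both changes 4 fell (9.88%) and 1 rose (12.2%).

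Genes outside the lists shrank too. Tiparp, an ADP-ribosyltransferase, had 21011, 17293 and 17612 after 1 session and 3693, 3490.1 and 2692 after 6, against 2721 to 5147 in control. Adamts4, a protease of the matrix, had 12981, 14220.2 and 15889 and then 5058, 1888 and 1893, where IMO_6x replicate 1 was the high one. The probe set annotated to Iqub had 20740.1, 10040.3 and 12346 after 1 session, 2474, 2722 and 3093 after 6 and 45.7 to 88.6 in control. The largest difference of all kept falls was that of Cwc25, a splicing factor by annotation: 39302, 14808 and 27728 after 1 session, 143, 421 and 678 after 6, and 608 to 2764 in control (-6.12 ± 0.66, adjusted p = 0.00709). The IMO_6x arrays of Cwc25 reached below control while its IMO_1x arrays spread over a wide range, and such probe sets rest on an annotation that can be old.

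The cAMP response element, the site that CREB and CREM bind, was looked for in the 250 bases before the start of genes in RefSeq promoters of build GRCr8. The letters searched were TGACGTCA, which read the same on both strands. Of the 62 upward responses that shrank in all 4 settings, 51 had a promoter entry and 6 of these (11.8%) held the letters, against 3.12% of the promoters of genes tested and 1.78% of all 27457 promoters. The 6 were Ell2, LOC102547700, Plk2, Ppp1r15a, Slc25a25 and Wsb1. Of the other classes in all 4 settings, 3 of 75 persisting upward responses (4.0%) held the letters. So did 5 of 124 late rises (4.03%) and 4 of 66 late falls (6.06%). In the stretches printed here 5′ to 3′ on the strand of the gene, capitals mark the element. They are shown to set 3 genes that shrank in all 4 settings beside Crem, which did not and which carries the element in a pair of alternative promoters.
Plk2 (chr2:43702430-43702517, plus strand): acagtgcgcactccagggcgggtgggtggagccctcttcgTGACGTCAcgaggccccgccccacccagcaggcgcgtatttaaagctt
Ppp1r15a (chr1:105139615-105139702, minus strand): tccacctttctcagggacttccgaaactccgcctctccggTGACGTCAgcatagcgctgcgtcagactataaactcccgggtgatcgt
Slc25a25 (chr3:36116692-36116779, minus strand): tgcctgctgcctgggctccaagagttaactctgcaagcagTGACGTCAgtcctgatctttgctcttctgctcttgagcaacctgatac
Crem (chr17:58984701-58984788, plus strand): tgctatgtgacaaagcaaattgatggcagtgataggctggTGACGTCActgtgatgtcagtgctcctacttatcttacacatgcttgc
Crem (chr17:58985415-58985489, plus strand): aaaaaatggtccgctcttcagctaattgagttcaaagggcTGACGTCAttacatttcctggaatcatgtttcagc
In Plk2, a polo-like kinase induced by activity, and in Ppp1r15a the last base of the element lies 59 bases before the start. Plk2 had 10178, 12522 and 13623 after 1 session and 2733, 4163 and 4636 after 6, against 2967 to 3483 in control (-1.68 ± 0.23, adjusted p = 0.00945). Slc25a25, a mitochondrial carrier of ATP-Mg and phosphate, had 18500.1, 14282 and 15221 and then 7423, 6461 and 8299, still above the 2025 to 3422 of control. Of 17 early factors with a promoter entry, 7 of the 13 without a match fell, and of the 4 with one, Crem, Ier2, Jund and Maff, 0 fell. Among MAPK and cAMP feedback genes with an entry, 6 of the 20 without a match fell, and the 1 with a match did not. A match is a description of these letters and shows no binding.

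For other early genes no difference between 6 sessions and 1 was detected. Nr4a3, an orphan nuclear receptor that binds DNA without a known ligand, had 54432, 37758 and 32859 after 1 session and 21465, 49421 and 46125 after 6, against 460.0 to 645 in control. The stressed groups overlapped, and the difference was -0.15 ± 0.33 with a 95% interval of -0.90 to 0.59. Nr4a3 persisted with all arrays and was undetermined after quantile normalization (-0.59). Its relative Nr4a2 had 3601, 4781 and 7043 and then 5193, 6207 and 4806 (95% interval -0.48 to 0.72), and Ier2, a nuclear early gene, 9634, 12297 and 14054 and then 11319, 13392 and 8678 (-0.60 to 0.38). Nr4a2 and Ier2 persisted in all 4 settings. For Egr1, the zinc finger factor that acts on the Th and Pnmt promoters, the sizes were 32078, 41274 and 33931 after 1 session and 74759.8, 45832 and 34849 after 6, and the interval of -0.32 to 1.26 left the class undetermined. Nr4a1 was undetermined as well (-1.59 to 0.26), with IMO_6x replicate 1 at 10919.8 and the other arrays of both stressed groups at 30968 to 41647.

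Persistence of very bright genes depended on the scale. Scx, a tendon transcription factor, had 58152, 50654 and 37659 after 1 session and 44805, 34377 and 39138 after 6 (-0.29 ± 0.24), Nfil3, a repressor linked to the clock, -0.27 ± 0.23, and Dgat1, which makes triglyceride, -0.25 ± 0.29. All 3 persisted with all arrays, and after quantile normalization all 3 counted as shrunken, with differences of -0.96, -0.97 and -0.97 (adjusted p = 0.0408, 0.0386 and 0.0230). Lratd1 did not depend on it: its intensities of 2955, 3185 and 3219 after 1 session and 3949, 2595 and 3005 after 6, against 148 to 235 in control, gave a difference between -0.16 and 0.16 in the 4 settings. In all, 106 of the 139 persisting upward responses persisted after quantile normalization, 4 shrank and 29 had another class or none.

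Of the 599 downward responses, the 305 that persisted with all arrays were the largest class. After quantile normalization 145 of these 305 persisted, 1 shrank, 13 were undetermined and 146 had no class. Macir, a regulator of macrophage activation, had 10327, 14384 and 14659 in control, 2273, 2328 and 2427 after 1 session and 2639, 2533 and 2574 after 6 (difference 0.14 ± 0.19, 95% interval -0.28 to 0.56). Its 6 stressed arrays lay close together, far under control. Sbk1, a kinase, had 2895, 1909 and 2401 and then 3779.9, 1862 and 1432, against 16458 to 19396 in control, and Tril, a coreceptor of Toll-like receptors, also persisted in all 4 settings. Of the receptors of the chemokine CXCL12, Cxcr4 had 9151 to 13703 in control, 1307, 1159 and 767 after 1 session and 2268, 1333 and 1388 after 6, while Ackr3, which scavenges the same chemokine, had 512 to 692, then 18350.4, 18651 and 17449, then 7219.9, 12048 and 13084. With all arrays neither passed between 6 sessions and 1 (adjusted p = 0.211 and 0.0689), and Ackr3 fell in the 3 other settings: -0.53 (adjusted p = 0.0277) without IMO_6x replicate 1, -0.76 (0.0419) after quantile normalization and -0.64 (0.0103) with both. Of the 2 other Cxcr4 probe sets, 1 differed by -0.78 without overlap and 1 by 0.14, so Cxcr4 has no single direction between the stressed groups.

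Among downward responses that shrank, genes came back toward control. Aifm2, an oxidoreductase that protects lipids from peroxidation, had 5076, 4080.2 and 6043 in control, 1079, 1073 and 1531 after 1 session and 3396, 2648 and 3116 after 6 (1.32 ± 0.23, adjusted p = 0.0139). Pacsin3, a membrane-bending adaptor, had 4714 to 5049, then 969, 1028 and 699.9, then 3694, 1467 and 3223. Mcm6, a subunit of the replication helicase, had 1761 to 2078, then 940.3, 1064 and 869, then 3090.2, 2211 and 2285, so that the IMO_6x arrays lay above control, and its class was lost after quantile normalization. Cog8, of the Golgi tethering complex, had 2064 to 2936, then 768, 1072 and 863, then 4635, 3239.7 and 3368 (2.03 ± 0.24, adjusted p = 0.00868). In these genes the IMO_6x and IMO_1x arrays did not overlap.

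Upward responses that grew in all 4 settings numbered 7, and Nmu had the largest difference. Nmu encodes neuromedin U, a peptide that raises stress hormone release and curbs feeding. Its intensity was 351, 248 and 67.7 in control, 1495, 2211 and 2546 after 1 session and 10738, 24164 and 20130.0 after 6. No groups overlapped, and the rise from 1 session to 6 was 8.47-fold (3.08 ± 0.53, adjusted p = 0.0122, between 2.98 and 3.43 in the 4 settings). Tmem119, a membrane protein, had 20443, 22259 and 21404 and then 51052, 46427 and 64809, against 3132 to 3898 in control (1.33 ± 0.19, adjusted p = 0.0101). Cyp51, a demethylase of cholesterol synthesis, had 33060.3, 16549 and 15775 and then 59152, 51925 and 75957, against 8078 to 8393 (1.58 ± 0.30, adjusted p = 0.0153). In Cyp51 IMO_1x replicate 1 stood above the other arrays of its group and still below all of IMO_6x. Pmvk, a kinase of the same pathway, rose late (2809, 3234 and 3728, then 14431, 11116 and 7947, 1.74 ± 0.24), and these were the 2 rises among 18 genes of cholesterol synthesis and uptake, both kept, with 0 falls.

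Other candidates for growth did not pass in every setting. Ptges, the inducible prostaglandin E synthase, had 247 to 377 in control, 1407, 2234 and 2903 after 1 session and 4723, 4842 and 4196 after 6 (1.13 ± 0.30, adjusted p = 0.0459, and 0.0605 after quantile normalization). Inhba, the activin subunit, had 4832, 4334 and 6738 and then 17075, 18393 and 11528 without overlap, at 1.56 ± 0.44 (adjusted p = 0.0523). Nts, neurotensin, had 10404, 7587 and 8896 and then 14838, 29338 and 20455, also without overlap, at 1.22 ± 0.57 (adjusted p = 0.197). The brightest probe set of Crem, whose ICER product represses cAMP-driven genes, rose from 89513, 59135 and 41074 to 168397, 120262 and 144744 with all arrays (1.25 ± 0.29, adjusted p = 0.0285). That rise was -0.12 after quantile normalization, and 4 of the 5 other Crem probe sets were lower after 6 sessions, so Crem has no single direction here. Downward responses that grew included Grb14, an adaptor that restrains insulin signalling, with 9918 to 11380.5 in control, 3721, 3525 and 2875 after 1 session and 569, 1402 and 1422 after 6 (-1.67 ± 0.33, adjusted p = 0.0173, and 0.103 after quantile normalization).

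Late rises included chaperones of the endoplasmic reticulum, which fold secretory proteins and are induced by the unfolded protein response. Of 23 tested, 5 rose and 0 fell between 1 session and 6 with all arrays, where 5.21% of all genes rose and 4.63% fell. The rises of Hsp90b1, Dnajc3, Sdf2l1 and Creld2 were kept, as were those of 2.78% of all genes. Without IMO_6x replicate 1, 13 rose and 2 fell (15.1% and 17.3% of all genes). With quantile normalization as well, 6 rose and 3 fell (12.2% and 9.88%). After 1 session 0 of the 23 were above control and 1 was below. Hsp90b1, the reticulum's HSP90, had 20560.4 to 22376 in control, 26089, 24794 and 20940.1 after 1 session and 79269, 64630.2 and 62357 after 6 (1.52 ± 0.21, adjusted p = 0.00945). Dnajc3, which restrains the kinase PERK, had 6868 to 8299, then 9421, 8945 and 8605, then 29801, 19576 and 20761 (1.35 ± 0.20, adjusted p = 0.0104). The IMO_6x arrays of both lay wholly above the other 6. Sdf2l1, a partner of BiP, had 5544, 4553 and 4103 and then 9225, 13308 and 10381 (1.20 ± 0.21), and Creld2, a disulphide isomerase, 2957, 2620.3 and 2229.5 and then 4727, 5802 and 4484 (0.94 ± 0.21), though Creld2 did not pass against control with all arrays. Hspa5, which is BiP, rose with all arrays from 58538, 45939 and 37455 to 91615, 91095 and 91130.5 (adjusted p = 0.0465) and differed by 0.00 after quantile normalization. With all arrays the other 18 members did not pass, and the list's median of 0.27 became 0.00 after quantile normalization.

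The ER stress element, which ATF6 and XBP1 bind with NF-Y, was searched in the same promoters on both strands, as CCAAT and CCACG with any 9 bases between them. Of 18 ER chaperone genes with a promoter entry, 7 (38.9%) held it, against 0.16% of the promoters of genes tested and 0.0765% of all. They were Calr, Canx, Creld2, Dnajc3, Hsp90b1, Hspa5 and Xbp1, and 4 of these 7 rose between 1 session and 6, as did 1 of the 11 without it. The stretches of the 3 kept rises that carry the element are printed 5′ to 3′ on the strand of the gene, with the matched letters in capitals. In Creld2 and in the first Hsp90b1 stretch the match lies on the other strand, so the capitals begin with CGTGG.
Creld2 (chr7:121789199-121789297, plus strand): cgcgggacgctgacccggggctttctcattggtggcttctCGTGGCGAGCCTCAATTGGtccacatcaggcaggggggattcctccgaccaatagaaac
Dnajc3 (chr15:102432494-102432592, plus strand): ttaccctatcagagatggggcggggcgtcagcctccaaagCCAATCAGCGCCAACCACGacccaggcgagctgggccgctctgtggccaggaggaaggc
Hsp90b1 (chr7:23012307-23012405, minus strand): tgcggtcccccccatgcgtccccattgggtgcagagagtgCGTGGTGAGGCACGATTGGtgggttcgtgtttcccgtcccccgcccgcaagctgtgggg
Hsp90b1 (chr7:23012411-23012509, minus strand): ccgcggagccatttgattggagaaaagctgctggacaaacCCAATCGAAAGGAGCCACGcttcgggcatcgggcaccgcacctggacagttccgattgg
The last capital letter lies 127, 115, 54 and 158 bases before the start in the order printed. Calr, Canx and Xbp1, which carry it too, had log2 differences of -0.13, -0.06 and -0.56 and did not pass.

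Of 18 neuropeptide and processing genes, 5 were above control after 1 session. Between 1 session and 6, 6 rose, 0 fell and 12 did not pass, and 3 rises were kept: Nmu, which grew, and the late rises of the opioid precursor Pdyn and the prohormone convertase Pcsk2. Pcsk2 had 1008 to 1747 in control, 1528, 1847 and 1567 after 1 session and 3050.2, 6326 and 4702 after 6 (1.44 ± 0.31, adjusted p = 0.0217). Pdyn had 3714, 3400.4 and 3942 and then 7082, 5786 and 8974 (0.96 ± 0.22, adjusted p = 0.0279), but its other probe set differed by -1.27. Npy, Cpe, which trims peptides after the convertases, and Scg5, the chaperone of Pcsk2, rose with all arrays and did not pass after quantile normalization.

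The kept late rises with the largest differences had varied roles. Cdkn1c, which encodes the cell cycle inhibitor p57 and is abundant in adrenal tissue, had 5688 to 9865 in control, 7446, 10402 and 6976 after 1 session and 61172, 32036 and 44945 after 6 (2.45 ± 0.30, adjusted p = 0.00868). Slit2, a guidance cue for axons and vessels, had 494, 533 and 546 and then 3808, 2291 and 1860.2 (2.24 ± 0.36). Riok1, a kinase of ribosome maturation, had 2169, 3415 and 3346 and then 39369.6, 13372 and 11967, and Zcrb1, of the minor spliceosome, 956, 1789 and 2085 and then 11563, 6868 and 6477. In Cdkn1c, Slit2, Riok1 and Zcrb1 IMO_6x replicate 1, with the actin ratio of 231, was the highest array, and without it their differences were 2.22, 1.95, 2.11 and 2.11. Among 23 cell cycle genes, 3 rose and 0 fell with all arrays, where 5.21% of all genes rose and 4.63% fell. All 3 rises were kept (2.78% of all genes): Mcm6, Rrm1, a subunit of ribonucleotide reductase, and the proliferation marker Mki67. Without IMO_6x replicate 1, 3 of the 23 rose and 1 fell (15.1% and 17.3% of all genes). Mki67 had 436, 518 and 437 after 1 session and 4999.8, 1598 and 1295 after 6 (2.20 ± 0.47, and 1.61 without replicate 1). Cry1, a repressor of the clock, was the 1 change among 17 clock genes with all arrays, a count near the 5.21% of all genes that rose. Without IMO_6x replicate 1, 2 clock genes rose and 1 fell (15.1% and 17.3% of all genes). Cry1 had 512 to 1415 in control, 1067, 1162 and 1222 after 1 session and 5654, 2997 and 3617 after 6 (1.77 ± 0.38, adjusted p = 0.0235).

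**Figure D3:**
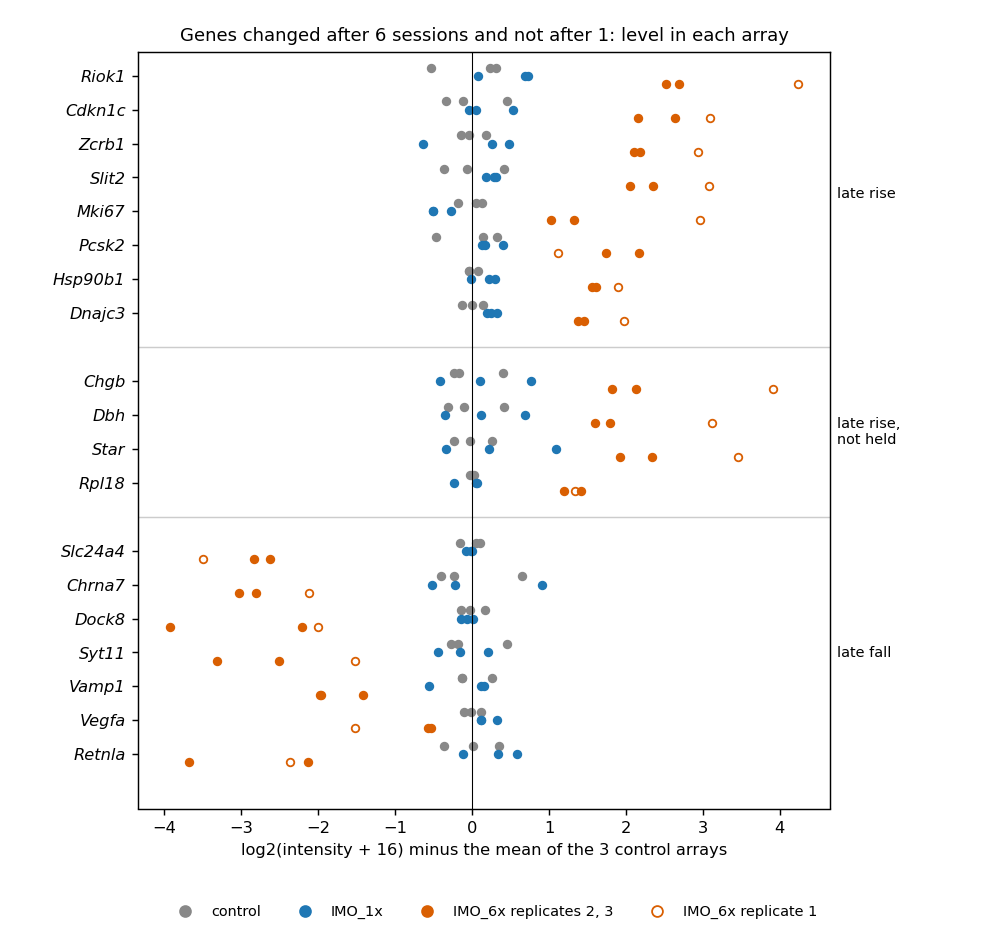
Level of single genes in each array, as log2(intensity + 16) minus the mean of the 3 control arrays (x axis), for genes changed after 6 sessions and not after 1 (y axis). Grey points are control, blue IMO_1x, filled orange IMO_6x replicates 2 and 3, and open orange IMO_6x replicate 1. Control and IMO_1x lie together near 0, and IMO_6x lies above for the rises and below for the falls. Chgb, Dbh, Star and Rpl18 rose with all arrays and did not pass after quantile normalization.

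Falls between 1 session and 6 included single genes of nerve input and release. Of 19 receptors and channels of excitation 4 fell and 0 rose, and 2 falls were kept, where 4.63% of all genes fell. Chrna7, the alpha7 nicotinic subunit, had 1019 to 2137 in control, 2556, 1169 and 946 after 1 session and 299.7, 180.4 and 153 after 6 (-2.71 ± 0.48, adjusted p = 0.0139). Scn9a, the sodium channel Nav1.7, had 2392 to 4443, then 6209, 6263 and 6333, then 2673, 1895 and 1649.6 (-1.62 ± 0.27, adjusted p = 0.0119), so its IMO_6x values overlapped control and it was in no response class. Chrnb4, the partner of the main ganglionic subunit, and the calcium channel Cacna1d fell with all arrays (-1.59 ± 0.27 and -1.42 ± 0.31) and had adjusted p = 0.0736 and 0.132 after quantile normalization.

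In 20 genes of exocytosis, 3 fell and 1 rose, and all 4 were kept. Vamp1, a vesicle SNARE, had 6621 to 8715 in control, 4914, 7884 and 8057 after 1 session and 1848, 2716 and 1832 after 6 (-1.69 ± 0.26, adjusted p = 0.0104), and 2 other Vamp1 probe sets were lower as well. Syt11, a synaptotagmin that does not bind calcium, had 1448, 1128 and 921 and then 427, 208 and 111 (-2.32 ± 0.49), and Cadps, which primes dense-core granules, 4698, 6170.1 and 5094 and then 2944, 2524 and 1860.5 (-1.13 ± 0.25). Sv2a, a vesicle glycoprotein, went the other way, from 801, 1349 and 1344 to 3879, 3228 and 2627 (1.49 ± 0.35). The remaining 16 members did not pass. The list's median was -0.22 with all arrays and 0.12 after quantile normalization without IMO_6x replicate 1. Over all genes 4.63% fell and 5.21% rose with all arrays.

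Vegfa, the main angiogenic factor, had 12753 to 14928 in control, 17203, 14849.8 and 14854 after 1 session and 4781, 9236 and 9495 after 6 (-1.06 ± 0.26, adjusted p = 0.036), and it was kept. Retnla, a secreted protein of the resistin family, had 1015, 850.1 and 617 and then 117, 141 and 37.6 (-2.99 ± 0.57, adjusted p = 0.0159). Dock8, an exchange factor of leukocytes, had 2304, 2179 and 2076 and then 557, 482 and 135 (-2.65 ± 0.45). With all arrays 0 of 13 leukocyte markers passed limma's threshold in either direction, and their median was -0.49. An unadjusted p under 0.05 was found for 3 of the 13, and for 3146 of all 11287 genes. Without IMO_6x replicate 1, 3 of the 13 fell (17.3% of all genes), and with quantile normalization as well 3 fell (9.88%). Slc24a4, a calcium exchanger, fell on its brightest probe set (-2.96 ± 0.31), but its other probe set differed by 1.14. Tubb3, a neuronal tubulin, had 12786, 12957 and 12827 and then 1504, 3533 and 4305 (-2.17 ± 0.34, adjusted p = 0.0113), against 5916 to 7569 in control. With all arrays Tubb3 was the 1 change among 9 markers of sympathetic neurons. Without IMO_6x replicate 1 Tubb3 counted as a shrunken rise.

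The genes that define the tissue gave an answer that depended on the scale. Of 17 genes of catecholamine synthesis and storage, 5 rose (Dbh, Pnmt, Chga, Chgb and Scg3) and Maob, which breaks monoamines down, fell, and 0 of these 6 were kept. Dbh, which makes noradrenaline, had 50078 to 83246 in control, 100162, 67779 and 48705 after 1 session and 543430.0, 188289 and 215877 after 6 (2.02 ± 0.46, adjusted p = 0.0279), without overlap. After quantile normalization the difference was 0.07 (adjusted p = 0.779). Pnmt, which makes adrenaline, was 1.27 ± 0.34 and then -0.01, and Th, the rate-limiting enzyme, 1.11 ± 0.47 (adjusted p = 0.16) and then -0.26. IMO_6x replicate 1 was the highest array for Dbh and Chgb and the lowest of its group for Th, at 79575 against 193597 and 224786.

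Other bright genes moved alongside. Of 8 chromaffin markers 4 rose, of 11 cortex markers 4 rose (Star, Cyp21a1, Hsd3b1 and Fdx1), of 28 genes of the cytosolic ribosome 13 rose, and 0 in these 3 lists fell or were kept. Star, the cholesterol carrier of steroid synthesis, had 116876, 63873 and 43245 after 1 session and 602316, 208111 and 277066 after 6, and Rpl18, of the large ribosomal subunit, 45659, 46200.2 and 37328 and then 111546, 100818 and 117262. Their medians were 1.19, 1.27 and 1.01 with all arrays and -0.13, -0.08 and 0.01 after quantile normalization. In the brightest of 10 equal groups of genes, which holds 6, 10 and 26 of these members, the median difference of all genes was 0.21, and 181 genes rose and 10 fell. Without IMO_6x replicate 1 that median was 0.52, after quantile normalization -0.07, and after both 0.06. The part of the array scale in these rises was not tested.

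**Figure D4:**
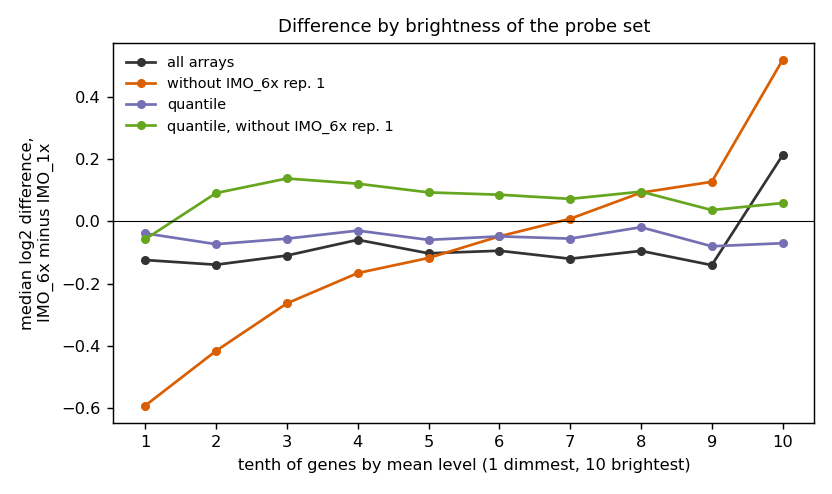
Median log2 difference between IMO_6x and IMO_1x (y axis) in 10 equal groups of genes ranked by mean level over all arrays (x axis, 1 dimmest, 10 brightest). Lines stand for the 4 settings. Without IMO_6x replicate 1 the median runs from -0.59 in the dimmest group to 0.52 in the brightest, and after quantile normalization it lies between -0.08 and -0.02.

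Of 30 proteasome genes 7 rose and 4 were kept, among them Psma6, Psmc2 and Psmd4. Of 39 genes of the respiratory chain and ATP synthase 7 rose and 3 were kept: Ndufb3, Ndufb5 and Ndufs7, all subunits of complex I. Ndufb5 had 16597, 19374 and 18534 after 1 session and 83326, 38838 and 43894 after 6 (1.52 ± 0.29, adjusted p = 0.0159). Of 17 heat shock chaperones 6 rose, Hspd1 and Hspe1 among them, and 1 rise, that of the small heat shock protein Hspb1, was kept. After 1 session 6 of the 17 had already been above control. Hspb1 had 30468, 28815 and 27272 and then 64882, 64868 and 66582 (1.18 ± 0.21, adjusted p = 0.0139), a difference of 0.59 after quantile normalization. None of these 3 lists had a fall with all arrays.

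Of 19 glucocorticoid-induced genes, 2 rose and 2 fell with all arrays, where 5.21% of all genes rose and 4.63% fell, and 0 of these 19 were kept. Without IMO_6x replicate 1, 4 rose and 4 fell (15.1% and 17.3% of all genes). After quantile normalization 0 passed (3.44% of all genes rose and 2.15% fell), and with both changes 2 rose and 4 fell (12.2% and 9.88%). Fkbp5, which dampens the glucocorticoid receptor, had 9163 to 11425 in control, 14946, 23834 and 19932 after 1 session and 60524, 37197 and 35893 after 6 (1.17 ± 0.27, adjusted p = 0.0276, and 0.114 after quantile normalization). Angptl4, an inhibitor of lipoprotein lipase, had 1935 to 3716, then 1060.3, 753 and 1228, then 2210.2, 3414 and 2202 (1.35 ± 0.32, adjusted p = 0.0297). Glul, which makes glutamine, had 15701 to 20594 in control, 14951, 12442 and 14676 after 1 session and 8586, 8156 and 7359.5 after 6 (-0.80 ± 0.19, adjusted p = 0.0292, and 0.0661 after quantile normalization), and its 2 other probe sets were lower too, without overlap. Sult1a1, a sulphotransferase, had 16365, 11586 and 13764 and then 2369, 7012 and 6017 (-1.56 ± 0.37, adjusted p = 0.0298, and 0.0590 after quantile normalization). Among markers of other cells, 0 of 8 Schwann cell and glial, 0 of 3 erythrocyte and 0 of 3 adipocyte markers passed with all arrays. Of these, 0, 0 and 0 had an unadjusted p under 0.05 by limma, against 3146 of all 11287 genes. Without IMO_6x replicate 1, 2 Schwann cell and glial markers and 1 adipocyte marker rose (15.1% of all genes). With quantile normalization as well, 2 Schwann cell and glial markers rose (12.2%). Of 11 endothelial markers the receptor Tek rose and was kept (0.69 ± 0.16) and Esam fell (-1.28 ± 0.29). Of 11 fibroblast and matrix markers Pdgfra (1.01 ± 0.27) and Mgp rose and were not kept. No marker list had a summed change that was tested, and 3 arrays a group limit what could be detected.

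**Figure D5:**
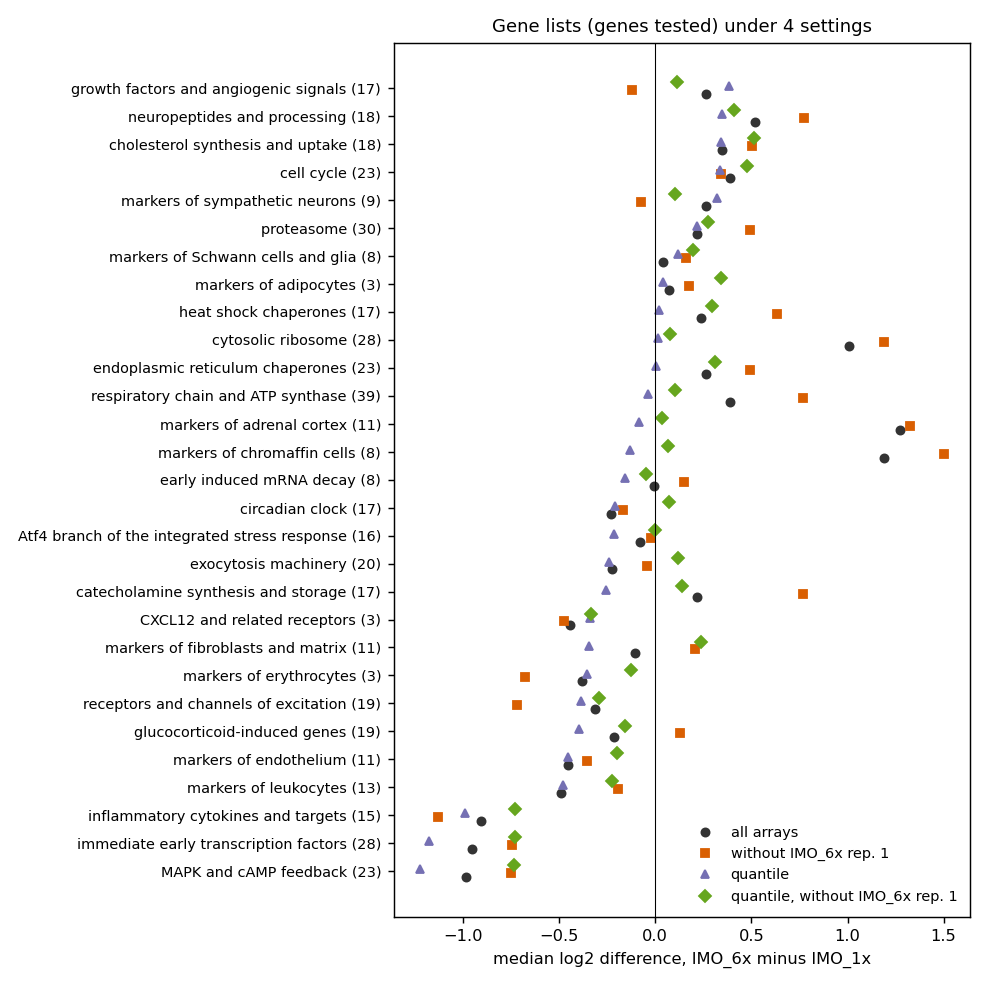
Median log2 difference between IMO_6x and IMO_1x (x axis) of each gene list (y axis, with the number of genes tested). Symbols stand for the 4 settings. Immediate early factors, MAPK and cAMP feedback and inflammatory genes lie below -0.7 in each setting, while the medians of ribosome, chromaffin and cortex genes lie above 1 before quantile normalization and between -0.14 and 0.08 after it.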

How the data were processed

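Each array was deposited as linear intensities, 1 for every probe set, and per the labels' protocols labelling was performed by Affymetrix. Trimmed means (2% off each end) of 2500.6 to 2501 fit a global scaling of each array by the authors. How probes were summarised is not given in sources used here. Of 31099 probe sets, 20826 had 1 gene symbol in the platform annotation, 436 several and 9780 none. Values were taken as log2(intensity + 16), the dimmest 30% of probe sets left out, and the brightest probe set used per gene. The fit was limma 3.58.1 in R 4.3.3 (lmFit, eBayes with trend, all 9 arrays, 6 residual degrees of freedom, two-sided, Benjamini-Hochberg threshold 0.05). It was tried on simulated data with equal spread in all groups, drawn from SDs below the median. In the arrays the median SD was 0.55 in IMO_6x (0.15 without replicate 1), 0.21 in IMO_1x and 0.21 in control. That simulation cannot show how the fit behaves under such unequal spread. Fold changes are on the log2(intensity + 16) scale and understate low genes. Errors are SE. The comparisons share arrays.

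The members and gene lists were chosen with earlier results of these data known. Named genes are the 12 largest kept rises and falls without overlap, the 3 largest each way whether or not kept, the 5 with the largest response per class and direction whose class is the same without IMO_6x replicate 1, up to 4 per list by adjusted p, and Th, Dbh, Pnmt, Fos, Egr1, Nr4a1, Crem and Fkbp5. Further list members, promoter matches and genes with opposite responses were named after their values were seen. Alternatives covered normalization, filter, pseudocount, probe set choice, replicate block, samples in the fit, array weights and each array left out.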

Additional observations from a re-analysis of the deposited data

Results flagged for a closer look

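In array controls outside the gene comparison, the IMO_6x arrays stood above the unstressed controls. The actin 3′/5′ ratio was 3.68 higher on the log2 scale, and the hybridisation controls were 2.85 higher. Both signals were present in IMO_6x replicates 2 and 3 as well as in replicate 1.

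With all arrays, responses to 1 and to 6 sessions went in opposite directions in 5 genes. Each was past the threshold against control on both sides and was tested directly between the stressed groups by limma. Above control after 1 session and below it after 6 were Arc (IMO_6x minus IMO_1x -2.34), the growth factor Bmp2 (-1.65), Fam43a (-1.88) and Srf (-1.37). Cir1, a corepressor of the Notch pathway, was the reverse, with a difference of 1.87. After quantile normalization Arc passed on neither side, with limma adjusted p of 0.0706 after 1 session and 0.0740 after 6. In that setting Bmp2 passed after 1 session (0.0463) and not after 6 (0.0586). Fam43a had 4113 to 6188 in control, 8423, 10089.9 and 12053 after 1 session and 2333, 3535 and 2451 after 6. Cir1 had 3076 to 3178, then 1685, 1716 and 1458, then 7139, 5652 and 5200.3. Each group of 3 arrays was apart from the other groups in both genes.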

How the results depend on the processing

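The count of rises (588) and falls (523) was 1711 and 1953 without IMO_6x replicate 1, 388 and 243 after quantile normalization, 1373 and 1116 after both, 40 and 20 after median centring, 28 and 37 in a fit of the 6 stressed arrays alone, and 2518 and 3070 with array weights, whose estimation stopped before convergence. Leaving out 1 array gave 0 to 1711 rises and 0 to 1953 falls. Shrunken, persisting, growing and late responses (171, 444, 47 and 712) were 116, 374, 10 and 351 after quantile normalization, 766, 1943, 225 and 1095 after that without IMO_6x replicate 1, 8, 26, 0 and 42 after median centring and 1371, 2066, 900 and 2702 with array weights. Leaving out 1 array gave 0 to 712, 115 to 1815, 0 to 419 and 0 to 2108. The cause was not tested. Of the 508 kept genes, 38 passed after median centring, 56 in the fit of the stressed arrays, 32 without IMO_1x replicate 2 and 0 without IMO_1x replicate 3.

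With the replicate number as a block, 468 genes rose and 475 fell. Deviations of same-numbered arrays correlated at 0.150, 0.0775 and 0.0877 between IMO_1x and IMO_6x, where the numbers were not taken as pairs, and at 0.508, 0.360 and 0.250 between control and IMO_1x, where each was over 0.1. With the block, responses to 1 session numbered 446 up and 531 down, of which 420 and 489 were among the 474 and 599 without it, and 142 responses shrank, 417 persisted, 38 grew and 627 were late.

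Among 176 named genes, 56 of 3473 values under other settings turned sign, in 26 genes. In 46 of these the gene was past the threshold neither with all arrays nor in that setting, as for Egr1. The other 10 follow. Crem was -0.12 after quantile normalization, -0.0849 after that without IMO_6x replicate 1 and -0.17 with the mean of its probe sets. Pdyn was -0.15 with that mean. After quantile normalization Fdx1 was -0.0264, Hsp90ab1 -0.16, Hspd1 -0.0248 and Pnmt -0.00999, and Hspd1 was -0.0049 without IMO_6x replicate 1 as well. Tmem86a, not past the threshold with all arrays, was 0.69 with array weights. Without a change of sign, 688 values lost and 78 gained the threshold. The number of arrays limits precision: the median SE of a difference was 0.32.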

Other observations

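Proteins of the mitochondrial ribosome, which translate the few proteins encoded in mitochondria, were looked at after 5 of them were seen among the 26 downward responses that shrank in all 4 settings. Of 73 tested, 13 were below control after 1 session and 0 above, where 5.31% of all genes were below and 4.2% above. The median log2 difference was -0.45 against -0.13 over all genes. After 6 sessions 8 of the 73 were below control and 5 above (14.9% and 9.36% of all genes). Between 1 session and 6, 15 rose and 1 fell (5.21% and 4.63% of all genes), and 12 rises were kept (2.78% of all genes). The median was 0.39, and 0.40 after quantile normalization, against -0.08 and -0.05 over all genes. Mrpl36 had 7188, 6462 and 7469 in control, 4682, 3072 and 3217 after 1 session and 7039, 6751 and 8112 after 6. Mrps31 had 2774 to 4161, then 1406, 1163 and 1305, then 4568, 2914 and 2186. In both the IMO_6x arrays lay near control and above IMO_1x. The group was picked from its values, so these counts carry no test, and the actin 3′/5′ ratios of 6.11 to 231 belong to the same IMO_6x arrays.

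Probe sets with no gene symbol were tested in a separate limma fit. It took in every probe set above the dim filter, with no choice of 1 per gene, and adjusted p over all of them. Of 5653 with no symbol above the dim filter, 88 rose and 288 fell between 1 session and 6. In the gene comparison 588 of 11287 genes rose (5.21%) and 523 fell (4.63%).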
